A study of Homo sapiens with 4 samples.

Results

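The enzymes described here are 9 genes that make serine and pass its carbon on to folate. They were taken by name from the 58735 genes in the files and sorted by branch. PHGDH, PSAT1 and PSPH form the serine synthesis branch. SHMT2, MTHFD2, MTHFD1L and ALDH1L2 are mitochondrial folate enzymes, and SHMT1 and MTHFD1 are cytosolic ones. All 9 symbols matched 1 gene ID each in GENCODE 29.

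RNA came from HT8, a human line that the labels place in colon cancer, as 2 libraries of genotype control (source HT8) and 2 of genotype PPDPF knockdown (source HT8-cas1). The labels name no treatment, dose or time. The agent behind the knockdown, whether HT8-cas1 is 1 clone, and what "cas1" means were not given in the sources used here. PPDPF, the targeted gene, had 237 and 266 FPKM in the controls against 281 and 283 FPKM in the other group, so its transcript was not lower (log2 fold change 0.16, SE 0.06, limma adjusted p = 0.0940). It passed as higher in 3 of 11 alternative settings, among them the fit without control replicate 2 (limma adjusted p = 0.0233, over all settings 0.0105 to 0.281). Its group is therefore called the libraries labelled knockdown, and every direction below is that of those libraries relative to control.

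FPKM are read numbers relative to exon length and to the size of the library. The length counts all annotated exons of a gene, such as 9217 bases for PHGDH and 2762 bases for PSPH. Levels of different genes therefore depend on that divisor, and the length of the transcripts expressed was not measured. Whole reads could be recovered from them, and reads in genes came to 17069628 to 19479906 per library. Of 10 colon epithelial markers all were expressed, at a summed 2681.6 and 2873.6 FPKM in control and 3220.3 and 3197.2 FPKM in the libraries labelled knockdown. By the test described below 5 rose and 1 fell, where 16.8% of all tested genes rose and 13.0% fell. Fibroblast markers summed to 0.385 to 0.730 FPKM, with COL1A2 and DCN at 0 in every library. Endothelial markers summed to 0.142 to 0.252 FPKM, with CDH5 and KDR at 0. Immune markers summed to 2.01 and 2.18 FPKM in control and 1.26 and 1.21 FPKM in the libraries labelled knockdown, mostly from CD14, with PTPRC, CD3E and MS4A1 at 0. The part of these markers in the results was not tested. Fewer cells that express a gene and less of its RNA per cell cannot be told apart in bulk RNA.

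Serine is made from the glycolytic intermediate 3-phosphoglycerate, which PHGDH oxidises, PSAT1 transaminates with glutamate as the donor, and PSPH dephosphorylates. Serine hydroxymethyltransferase then moves a carbon from serine to tetrahydrofolate and leaves glycine. The mitochondrial route sends this carbon through MTHFD2 and MTHFD1L to formate, which leaves for the cytosol, where MTHFD1 makes it available for purine and thymidylate synthesis. In proliferating tumour cells several of these genes, though not all, are known targets of ATF4, the transcription factor of the amino acid response. MYC is also known to raise several of the enzymes.

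Promoter windows, 250 bases before to 50 bases after an annotated transcript start, were available from RefSeq (GRCh38.p14) for 6 of the 9 genes, in 9 windows. PSPH, SHMT2 and ALDH1L2 had no entry. The 4 windows printed here belong to the serine branch genes with the highest transcript level and the largest fall, and to the mitochondrial folate genes whose windows hold a searched motif. All are on the plus strand, and the PHGDH window lies inside the span that GENCODE 29 gives the gene. Capitals mark TGATGNAA, the core of the C/EBP-ATF element that ATF4 binds, CACGTG, the E-box that MYC binds, TGACNNNGC, the core of the antioxidant element, and CCAAT, each searched on both strands.
PHGDH, chr1:119711684-119711983: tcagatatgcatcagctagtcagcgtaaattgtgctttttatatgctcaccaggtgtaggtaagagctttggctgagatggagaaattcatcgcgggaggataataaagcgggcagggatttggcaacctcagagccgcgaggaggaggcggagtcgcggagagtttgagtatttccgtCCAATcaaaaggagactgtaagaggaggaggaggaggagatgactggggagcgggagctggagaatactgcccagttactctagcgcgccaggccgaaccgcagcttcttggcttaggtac
PSAT1, chr9:78296875-78297174: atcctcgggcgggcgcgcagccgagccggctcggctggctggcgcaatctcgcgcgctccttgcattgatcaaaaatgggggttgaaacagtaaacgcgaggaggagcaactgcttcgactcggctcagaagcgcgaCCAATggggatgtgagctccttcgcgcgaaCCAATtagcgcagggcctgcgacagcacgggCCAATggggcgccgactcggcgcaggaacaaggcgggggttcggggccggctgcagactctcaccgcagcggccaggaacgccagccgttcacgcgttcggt
MTHFD2, chr2:74198365-74198664: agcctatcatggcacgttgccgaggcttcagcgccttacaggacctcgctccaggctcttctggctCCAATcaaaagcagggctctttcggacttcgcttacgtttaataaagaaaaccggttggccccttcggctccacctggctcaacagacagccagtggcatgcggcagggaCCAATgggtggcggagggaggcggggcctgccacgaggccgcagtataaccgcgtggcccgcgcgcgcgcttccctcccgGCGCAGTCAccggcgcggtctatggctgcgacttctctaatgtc
MTHFD1L, chr6:150866236-150866535: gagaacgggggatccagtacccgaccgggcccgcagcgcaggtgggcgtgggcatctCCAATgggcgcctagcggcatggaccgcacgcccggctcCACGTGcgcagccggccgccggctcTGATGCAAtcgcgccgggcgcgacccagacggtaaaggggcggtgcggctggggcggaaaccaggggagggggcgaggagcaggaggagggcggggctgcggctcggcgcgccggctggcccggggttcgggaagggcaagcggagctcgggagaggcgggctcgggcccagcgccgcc

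Of the 6 genes with windows, MTHFD1L was the one whose windows held the C/EBP-ATF core, at chr6:150866357-150866364. This core lay inside the window shown, 129 bases before its transcript start. In another window it lay 90 bases before the transcript start, and in the remaining overlapping one after it. An E-box lay upstream of the core at chr6:150866332-150866337. These 2 sites lay in 3 overlapping MTHFD1L windows and not in its remaining window, further into the gene. Across 35116 windows of all genes, 3.62% held TGATGNAA and 7.26% held CACGTG. MTHFD1 also held an E-box, 15 bases before its start. MTHFD2 held the antioxidant core just after its start, on the minus strand as GCGCAGTCA, which 13.3% of all windows held in either orientation. CCAAT, a motif chosen after the sequences had been seen, was in 8 of the 9 windows and in all 6 genes, against 34.6% of all windows. A match describes the letters of a window and shows no binding, and a missing match says only that these letters are not in it.

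All of the 9 enzymes except ALDH1L2 were expressed well above the filter of a mean of 1 FPKM, and 8 were tested. In the libraries labelled knockdown 7 of the 8 fell and 0 rose (limma-trend on log2(FPKM + 1), Benjamini-Hochberg adjusted p under 0.05 over 12777 genes). Of all tested genes, 13.0% fell and 16.8% rose by the same rule. The 9 enzymes were chosen with earlier results of these data known. The shares over all genes are therefore a background and no independent test of the list. With an unadjusted p under 0.05, 8 of the 8 were lower, where 19.7% of all tested genes were lower and 23.2% higher. With limma-voom 8 of the 8 fell, where 21.2% of all tested genes fell and 19.6% rose. Whichever library was left out, 5 of the 8 passed as lower. The median log2 fold change of the 8 enzymes was -0.34, beside 0.001 over all tested genes. Both libraries labelled knockdown lay below both controls for each of the 8, a pattern seen in 33.8% of tested genes. Together the 9 enzymes took 0.243% and 0.241% of reads in control and 0.181% and 0.184% in the libraries labelled knockdown. Separate cultures are not stated for the libraries within a group, so the p-values rest on a spread between these libraries that may be technical and on nothing else. Log2 fold changes here are those of FPKM + 1, while percentages compare mean FPKM.

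**Figure D1:**
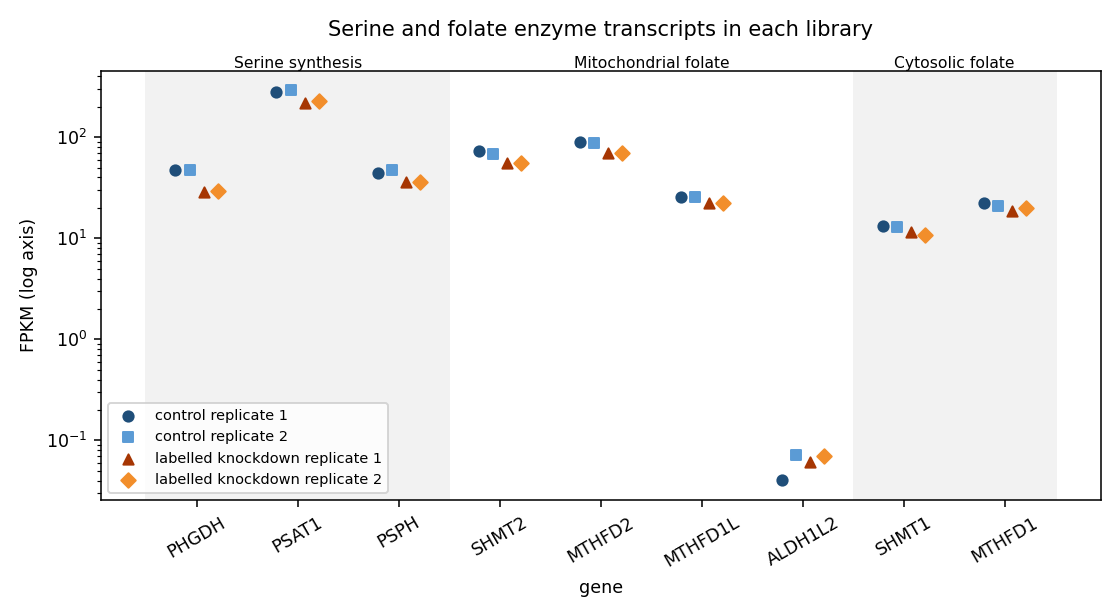
FPKM on a log axis for each of the 9 enzymes, 1 point per library, grouped by branch. PSAT1 was the most abundant in every library, ALDH1L2 lay under 0.1 FPKM in each, and for the other 8 both libraries labelled knockdown sat below both controls.

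In control the order by FPKM was PSAT1, MTHFD2, SHMT2, PHGDH, PSPH, MTHFD1L, MTHFD1, SHMT1 and ALDH1L2. In control FPKM, PHGDH and PSPH did not differ beyond their spread. PHGDH at 47.7 and 47.5 FPKM lay between PSPH at 44.1 and 47.8 FPKM. By reads PHGDH was higher, with 7724 and 8604 against 2142 and 2595, over a longer exon length. The other neighbours in this order did not overlap. In the libraries labelled knockdown PSPH stood above PHGDH in FPKM, at 36.1 in each against 28.6 and 29.2. By reads it stayed below, with 1723 and 1693 against 4546 and 4556. The rest of the order by FPKM was as in control.

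The serine synthesis branch held the largest change. PHGDH (ENSG00000092621, GRCh38 chromosome 1, 119648411 to 119744226), the first and committed enzyme of the branch, had 47.7 and 47.5 FPKM in control and 28.6 and 29.2 FPKM in the libraries labelled knockdown. The groups were far apart and each pair was tight, with 7724 and 8604 reads against 4546 and 4556. Its mean fell by 39.3%, from 47.6 ± 0.112 to 28.9 ± 0.406 FPKM (SD, n = 2 per group). The log2 fold change was -0.70 (SE 0.03, 95% interval -0.78 to -0.62, limma adjusted p = 0.000886), rank 266 from the lowest among the 12777 tested genes.

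PSAT1 (ENSG00000135069, chromosome 9, 78297143 to 78330093), the phosphoserine aminotransferase, had 280.5 and 292 FPKM in control and 218 and 226 FPKM in the libraries labelled knockdown. It was the most abundant of the 9 in each group, with 8243 to 12567 reads per library. Its level fell by 22.5% (log2 fold change -0.37, SE 0.04, limma adjusted p = 0.00306). PSPH (ENSG00000146733, chromosome 7, 56011051 to 56051604), the phosphatase that releases free serine, had 44.1 and 47.8 FPKM in control and 36.1 FPKM in each library labelled knockdown. It fell by 21.3% (log2 fold change -0.34, SE 0.05, limma adjusted p = 0.00785).

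PSPH has an unprocessed pseudogene on chromosome 7, PSPHP1, which was also detected and could share its reads. PSPHP1 had 15.7 and 11.1 FPKM in control and 20 and 20.8 FPKM in the libraries labelled knockdown, from 57 to 92 reads. Its move was opposite to that of PSPH (log2 fold change 0.59, limma adjusted p = 0.0418). That call was lost without either library labelled knockdown (limma adjusted p = 0.116 and 0.137), under quantile normalization (0.0517) and with no filter (0.161). The 4 annotated PSAT1 pseudogenes held 0 or 1 read in each library. No exon of PHGDH, PSAT1 or PSPH overlapped an exon of another annotated gene.

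In the mitochondrial folate branch, 3 of 4 enzymes were tested and all 3 fell. SHMT2 (ENSG00000182199, chromosome 12, 57229327 to 57234935), which splits serine inside the mitochondrion, had 72.3 and 68.4 FPKM in control and 55.1 and 55.7 FPKM in the libraries labelled knockdown. The groups did not overlap, and SHMT2 fell by 21.3% (log2 fold change -0.34, SE 0.04, limma adjusted p = 0.00449). MTHFD2 (ENSG00000065911, chromosome 2, 74198562 to 74217565), the dehydrogenase and cyclohydrolase of the mitochondrial route, had 89.3 and 88.5 FPKM against 69.3 and 70.6 FPKM. It also fell by 21.3% (log2 fold change -0.34, SE 0.03, limma adjusted p = 0.00238).

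MTHFD1L (ENSG00000120254, chromosome 6, 150865549 to 151101887), the synthetase that releases formate, had 25.4 and 25.6 FPKM in control and 22.3 and 22.1 FPKM in the libraries labelled knockdown. Its change was smaller, a fall of the mean from 25.5 ± 0.107 to 22.2 ± 0.158 FPKM (log2 fold change -0.19, SE 0.03, limma adjusted p = 0.0156). Leaving out any 1 library ended the call, with a limma adjusted p of 0.0672 without control replicate 1, 0.0694 without control replicate 2, 0.0680 without knockdown replicate 1 and 0.0747 without knockdown replicate 2. Among the 6 genes with promoter windows, it is the one whose windows hold the C/EBP-ATF core. They also hold an E-box, as does the window of MTHFD1. A part of these sites in the change was not tested.

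ALDH1L2, the mitochondrial formyltetrahydrofolate dehydrogenase (ENSG00000136010, chromosome 12, 105019784 to 105084577), was barely detected. It had 6 and 12 reads in control and 9 and 10 reads in the libraries labelled knockdown, which is 0.0401, 0.0718, 0.0613 and 0.0693 FPKM. The groups overlapped. Summed reads gave a ratio of labelled knockdown to control of 1.13, with an exact 95% interval of 0.561 to 2.28 that covers counting error only, so no difference was detectable at this depth. Another formyltetrahydrofolate dehydrogenase, the cytosolic ALDH1L1, was the one expressed, with 8.79 and 9.0 FPKM in control and 7.54 and 7.48 FPKM in the libraries labelled knockdown.

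The cytosolic enzymes had the lowest FPKM of the tested 8 and the smallest median change, -0.18 on the log2 scale over 2 genes. By reads MTHFD1 stood above MTHFD1L, with 3696 and 3857 in control against 2245 and 2524. SHMT1 (ENSG00000176974, chromosome 17, 18327860 to 18363563), the cytosolic serine hydroxymethyltransferase, had 13.3 and 12.9 FPKM in control and 11.6 and 10.9 FPKM in the libraries labelled knockdown. It fell by 14.2% (log2 fold change -0.20, SE 0.05, limma adjusted p = 0.0366). Leaving out control replicate 1 or 2 ended the call (limma adjusted p = 0.146 and 0.0976), as did leaving out knockdown replicate 1 or 2 (0.0624 and 0.136) and testing without a filter (0.0970).

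MTHFD1 (ENSG00000100714, chromosome 14, 64388031 to 64463457), the trifunctional cytosolic enzyme, had 22.4 and 20.9 FPKM in control and 18.8 and 20.1 FPKM in the libraries labelled knockdown. The groups did not overlap, but the spread within them was wide against the difference and MTHFD1 did not pass the test (log2 fold change -0.15, 95% interval -0.29 to -0.01, limma adjusted p = 0.0952). With limma-voom on the recovered reads it passed as lower (log2 fold change -0.18, limma adjusted p = 0.00219, range over the alternatives 0.00219 to 0.313).

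**Figure D2:**
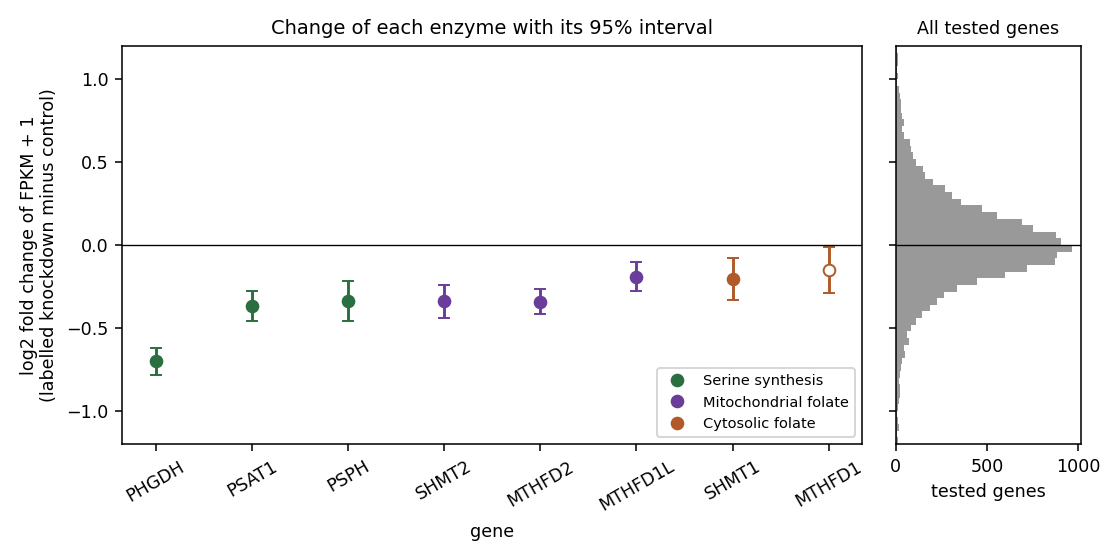
Log2 fold change of FPKM + 1 with its 95% interval for the 8 tested enzymes, coloured by branch (filled, passed the test; open, MTHFD1, did not pass), beside the distribution of changes within ±1.2 over tested genes. PHGDH lies lowest at -0.70, PSAT1, PSPH, SHMT2 and MTHFD2 lie between -0.37 and -0.34, and MTHFD1L, SHMT1 and MTHFD1 between -0.20 and -0.15.

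Side by side, the median log2 fold change was -0.37 for the 3 serine branch genes, -0.34 for the 3 tested mitochondrial folate genes and -0.18 for the 2 cytosolic ones. The difference between branches was not tested, since genes are not replicates. Ratios of FPKM within a library show how far members moved apart. Their size depends on the exon lengths used, while their relative change between groups does not. With 2 libraries against 2 an exact two-sided permutation test cannot go below p = 0.333. SHMT2 stood 5.45 and 5.31 times above SHMT1 in control and 4.75 and 5.13 times above it in the libraries labelled knockdown. The ratio was lower there, without overlap, but the libraries labelled knockdown differed more from each other than the nearest libraries of the 2 groups did. MTHFD2 stood 3.98 and 4.23 times above MTHFD1 in control and 3.69 and 3.52 times above it in the libraries labelled knockdown. MTHFD1L to MTHFD1 was 1.13 and 1.22 in control against 1.19 and 1.10, which overlapped.

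Within the mitochondrial route MTHFD2 moved further than MTHFD1L, from 3.51 and 3.46 times its level to 3.10 and 3.19 times. In the serine branch the ratio of PSAT1 to PHGDH went from 5.89 and 6.15 in control to 7.64 and 7.74 in the libraries labelled knockdown. PHGDH to PSPH went from 1.08 and 0.994 to 0.791 and 0.806. PSAT1 to PSPH stayed between 6.04 and 6.36 in the 4 libraries and its groups overlapped. SHMT2 to PHGDH went from 1.52 and 1.44 to 1.93 and 1.91. Relative to their own size, the ratios with the widest gaps between groups thus all involved PHGDH.

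**Figure D3:**
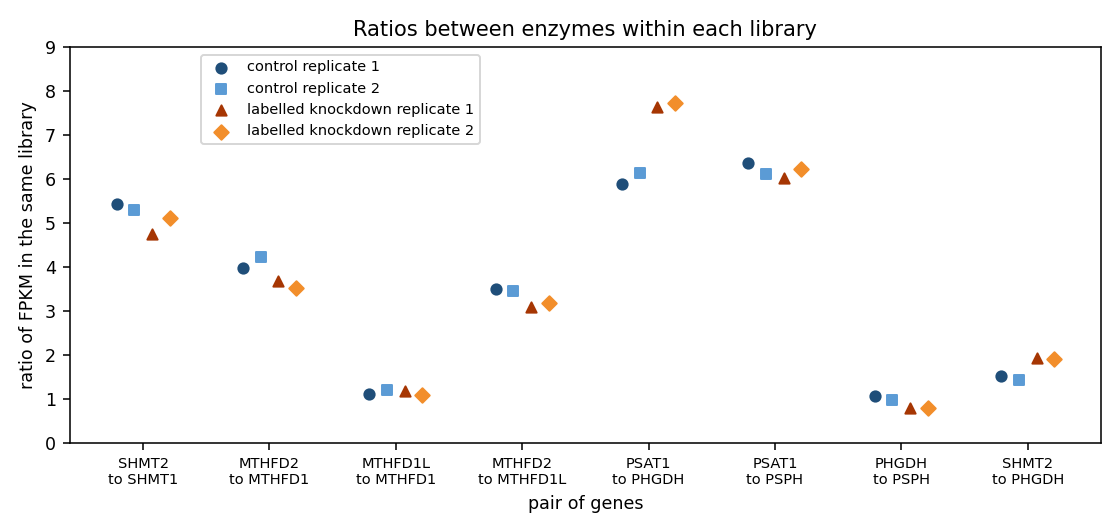
Ratio of FPKM between pairs of enzymes within the same library, 1 point per library, on an axis from 0. PSAT1 to PHGDH rises from 5.89 and 6.15 to 7.64 and 7.74, while PSAT1 to PSPH and MTHFD1L to MTHFD1 overlap between groups.

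The tested genes beside each enzyme on its chromosome had a median change nearer to 0 than the enzyme itself. Over the 10 nearest tested genes on each side, the median log2 fold change was 0.03 around PHGDH, -0.12 around PSAT1, 0.07 around PSPH, -0.03 around SHMT2 and -0.01 around MTHFD2. Around MTHFD1L, SHMT1 and MTHFD1 it was 0.06, 0.003 and -0.03. The neighbours of PSAT1 had the lowest median, and 4 of those 20 rose and 4 fell. Exons of opposite-strand genes covered 33.2% of the MTHFD2 exon bases, but those genes, SLC4A5 and AC006030.1, reached at most 0.0992 and 0.0201 FPKM. For SHMT2 the covered share was 9.51% (highest partner NDUFA4L2, up to 0.527 FPKM), and for MTHFD1 it was 11% (highest partner ZBTB25, up to 1.71 FPKM). SHMT1 shared 2.69% of its exon bases with opposite-strand genes, of which SMCR8 reached 12.6 FPKM. Without a known strand setting, reads of such shared bases cannot be told apart.

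The genes whose 4 values ran most like those of PHGDH were RDH11, GPT2, TIMP3, CD47 and HERC6, among 5074 genes with a mean of at least 10 FPKM. Likeness was the Euclidean distance of centred log2(FPKM + 1) values over 4 libraries, from 0.0248 for RDH11, a retinol dehydrogenase, to 0.0455 for HERC6, a HECT-type ligase family member induced by interferon. GPT2, the mitochondrial alanine aminotransferase, had 26 and 26.2 FPKM in control and 15.1 and 15.7 FPKM in the libraries labelled knockdown. TIMP3, an inhibitor of metalloproteinases, had log2 fold change -0.66, and CD47, a surface signal that limits phagocytosis, -0.67. Likeness was measured on these same values, so fold changes near that of PHGDH follow from the choice.

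The rest of the pathway was taken as 8 lists of 77 genes, of which 64 were tested, 3 rose and 20 fell. Their median change was -0.08 on the log2 scale. Of all tested genes 16.8% rose and 13.0% fell by limma-trend, which is the background for each list count below. These lists too were chosen with earlier results of these data known. Of 10 other tested folate enzymes 0 rose and 4 fell by limma-trend, at a median of -0.10 (2 higher at an unadjusted p under 0.05 and 1 with limma-voom). The fallen count was 1 without control replicate 1, control replicate 2 or knockdown replicate 2, 2 without knockdown replicate 1, and 0 with no filter. TYMS, thymidylate synthase, had 24.2 and 19.4 FPKM against 23.5 and 22 FPKM, which overlapped. MTHFD2L, the paralog of MTHFD2, had 1.48 and 1.6 FPKM against 1.36 and 1.21 FPKM and did not pass (limma adjusted p = 0.358).

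Carriers of folate, serine and glycine held 1 risen and 4 fallen genes of 9 tested, at a median of -0.17 (1 higher and 6 lower with limma-voom). Besides SLC19A1, the fallen carriers were SLC6A9 (log2 fold change -0.65, limma adjusted p = 0.00143), SFXN2 (-0.44, 0.0227) and SLC1A4 (-0.39, 0.00506). SLC19A1, the reduced folate carrier, had 7.14 and 7.39 FPKM in control and 5.16 and 5.27 FPKM in the libraries labelled knockdown (log2 fold change -0.41, limma adjusted p = 0.00587). SFXN3, a sideroflexin of the mitochondrial serine carrier family, rose from 14.9 ± 0.190 to 22.1 ± 0.313 FPKM (log2 fold change 0.54, limma adjusted p = 0.00166), beside -0.03 for SFXN1, the main mitochondrial serine carrier (95% interval -0.12 to 0.06). Of the glycine cleavage and catabolism list, 4 of 9 genes were tested, 1 rose and 1 fell, at a median of -0.16. GLDC and AMT of the cleavage system were at 0 to 4 reads in each library. Of the AMT exon bases 63.1% lay in same-strand exons of AC104452.1. How reads of such bases were counted is not known, so the AMT level may be understated. The risen gene was DLD, the lipoamide dehydrogenase also used by other dehydrogenase complexes. The 20 tested neighbours of DLD on chromosome 7 had a median of 0.22, with 9 risen and 1 fallen, and their part in its change was not tested.

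In purine synthesis, which uses cytosolic formyl groups, 3 of 6 tested genes fell and 0 rose, at a median of -0.21 (4 lower and 0 higher at an unadjusted p under 0.05, 5 and 0 with limma-voom). The fallen count was 1 without control replicate 1 or knockdown replicate 1, and 2 without control replicate 2 or knockdown replicate 2. PAICS fell from 57.5 ± 0.503 to 48.8 ± 0.693 FPKM (log2 fold change -0.23, limma adjusted p = 0.00703), while GART, a formyl transfer enzyme, did not pass (-0.08, 0.267) except with limma-voom (0.0409). The methionine cycle had 9 tested genes, with 0 risen and 0 fallen by limma-trend, at a median of -0.08. At an unadjusted p under 0.05, 1 was higher and 3 were lower, and limma-voom called 1 higher and 4 lower. Without control replicate 2, and with the replicate number as a block, 1 rose and 0 fell. Of 9 tested genes of transsulfuration and serine use, 0 rose and 2 fell, at a median of 0.10 (1 higher at an unadjusted p under 0.05 and 0 with limma-voom). Those that fell, PTDSS1 and PTDSS2, exchange serine into phosphatidylserine. The 20 tested neighbours of PTDSS2 on chromosome 11 had a median of -0.42, with 12 fallen and 0 risen, and their part in its change was not tested. In lower glycolysis 1 of 6 tested genes rose and 1 fell, where 16.8% of all tested genes rose and 13.0% fell. The median of the list was 0.03, and PGK1, which makes 3-phosphoglycerate, rose from 85.4 ± 1.41 to 102 ± 0.302 FPKM. The fallen count was 0 whichever library was left out, and 2 genes rose without control replicate 2.

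**Figure D4:**
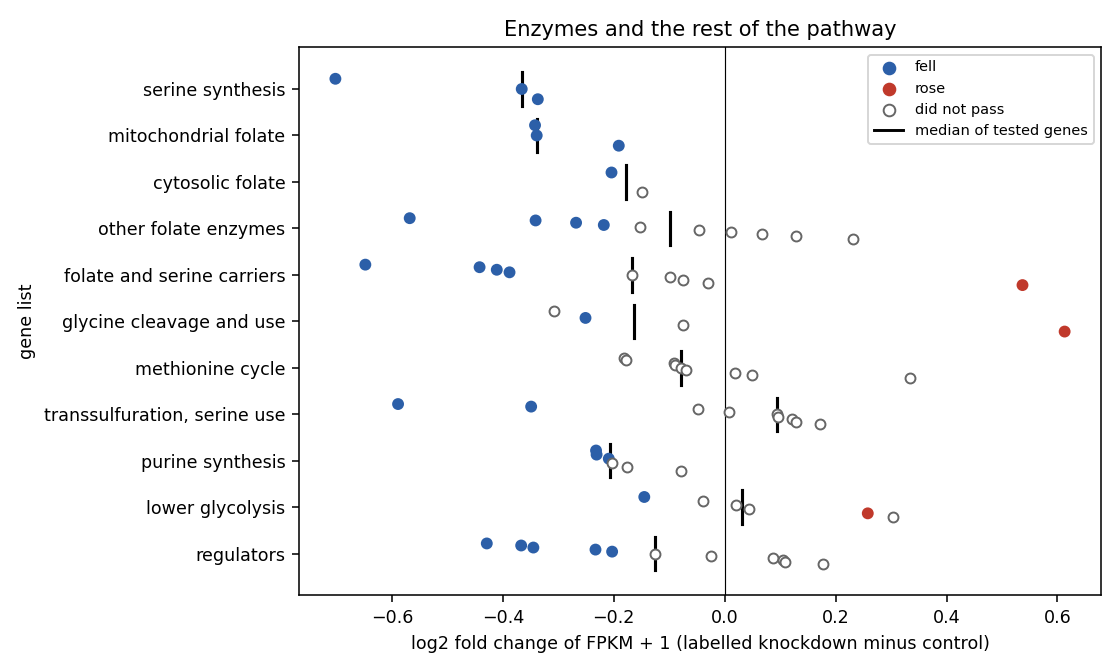
Log2 fold change of FPKM + 1 for each tested gene of the 3 enzyme branches and the 8 other lists, with the median of each list as a bar. The serine, mitochondrial and cytosolic branches lie below 0, as does purine synthesis, whereas carriers and glycine genes each include a risen gene (SFXN3 and DLD).

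Transcripts of regulators known to act on these enzymes numbered 11, all tested, of which 0 rose and 5 fell, at a median of -0.13 (2 higher at an unadjusted p under 0.05 and 0 with limma-voom). The fallen count was 3 without control replicate 2, knockdown replicate 1 or knockdown replicate 2, and with no filter. ATF4 had 259 and 277 FPKM in control and 247 and 244 FPKM in the libraries labelled knockdown, without overlap, and did not pass (log2 fold change -0.13, limma adjusted p = 0.0726). It passed as lower in 4 of 11 alternatives, among them the fit without control replicate 1 (limma adjusted p = 0.0486, over all alternatives 0.000558 to 0.234). MYC had 77.3 and 79.7 FPKM against 60.4 and 62.7 FPKM (log2 fold change -0.35, limma adjusted p = 0.00368). NFE2L2, which encodes the antioxidant factor NRF2, had 31.7 and 34.5 FPKM against 23.8 and 24.9 FPKM (log2 fold change -0.43, limma adjusted p = 0.00565). The activity of these proteins was not measured.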

How the data were processed

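The authors deposited FPKM per gene, 1 table per library. HISAT2 2.0.5 and hg18 are named per the submitters' processing notes. Counting tool, annotation, strand setting and filters were not given in the sources used here. All 58735 gene IDs matched GENCODE 29, so coordinates are on GRCh38. FPKM times union exon length gave whole reads (within 0.01 of a read) for 100% of values above 0. The 2 libraries of a group differed beyond sampling noise (chi-square per gene 2.51 and 2.38).

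The 12777 genes whose mean FPKM reached 1 were fitted on log2(FPKM + 1), a scale that understates changes of low genes, with limma-trend (limma 3.58.1, R 4.3.3), group as the only term and 2 residual degrees of freedom. A gene was called when its two-sided p, Benjamini-Hochberg adjusted over these genes, was under 0.05. Members and gene lists were chosen with earlier results of these data known. Named genes are the members, PPDPF, a list of key pathway genes, up to 2 further called genes per list and the 5 nearest to PHGDH. Not all are printed. PSPHP1 and exon-sharing genes were named after their values were seen, and the CCAAT motif after the promoters were. On simulated data with 200 changed genes, 9.54% of the calls were false, above the nominal rate, and 4% of 1.25-fold changes were recovered. Far more genes were called in the real data, so these rates need not hold there. Figures were drawn with matplotlib 3.10.9 in Python 3.11.15. Alternatives were other normalizations, filters, a pseudocount of 0.1, limma-voom, the replicate number as a block, and each library left out.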

Additional observations from a re-analysis of the deposited data

How the results depend on the processing

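The count of 7 fallen enzymes became 6 with no filter, 8 with limma-voom on recovered reads, 5 whichever library was left out, and 7 under quantile normalization, scaling to non-mitochondrial reads, a filter at 5 FPKM, a pseudocount of 0.1 and the replicate block. PHGDH, PSAT1, PSPH, SHMT2 and MTHFD2 passed the test as lower in all 11 alternatives, with limma adjusted p of at most 0.0137, 0.0303, 0.0430, 0.0310 and 0.0202. No enzyme rose in any of them, and over the 8 tested enzymes and these alternatives 78 values kept their call, 9 lost it (4 of MTHFD1L and 5 of SHMT1) and 1 gained it (MTHFD1). Over all genes, 2152 rose and 1662 fell. With no filter 1134 rose and 734 fell, limma-voom gave 2502 risen and 2709 fallen, scaling to non-mitochondrial reads 1880 and 2040, so that more genes fell than rose under both, and leaving out 1 library gave 1141 to 1345 risen and 775 to 919 fallen. A group left with 1 library is assumed to vary like the other. With the replicate block 1899 rose and 1405 fell. The block changed no call of the 8 enzymes, took the fallen count of the other folate enzymes from 4 to 3 (GGH, limma adjusted p = 0.0516) and added 1 risen methionine cycle gene. Same-numbered libraries did not deviate together (r = -0.0021 across 12777 genes). That value cannot show whether they were cultured or prepared together. The causes of these changes were not tested.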
